A study of Mus musculus with 14 samples.

Results

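The 48 genes described here encode 2-oxoglutarate-dependent dioxygenases, enzymes that use up 2-oxoglutarate, the substrate of the enzyme encoded by Ogdh. They were chosen by gene symbol as TET enzymes, JmjC proteins, HIF and collagen hydroxylases, AlkB enzymes and a few others, and all 48 symbols were found among the 53465 genes of the count table. A filter on low counts left 46 of them among 10791 tested genes. Egln3, with 0 counts in every library, and Tet1, with 61 counts over all 14 libraries, were not tested. The rule names genes by symbol and uses no measured value, but it was set with earlier results of these data known.

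The cells were KL974, a mouse acute myeloid leukemia (AML) line kept in medium with IL3, IL6 and SCF. Every group carried the genotype Trp53R172H;shMll3;shNf1, a mutant Trp53 with hairpins against Mll3 (Kmt2c) and Nf1, and a lentiviral hairpin under doxycycline control, linked to blue fluorescent protein (BFP). At day 4 of doxycycline there were 4 groups, namely BFP positive cells with shOgdh346, BFP positive cells with shOgdh2081, and BFP positive and BFP negative cells with the control hairpin shRen713. The other 3 groups held the control hairpin as well, as BFP positive and BFP negative cells at day 2 and as untreated cells at day 0, for which sorting is not named. Each group had 2 libraries. No label says that these were separate cultures, so the p-values rest on a spread between libraries that may be technical. That spread was estimated over all 7 groups and mostly from all tested genes, not from the compared libraries alone. KL974 is the only line in the series, and BFP negative control cells had the doxycycline and the vector but were sorted as not induced.

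Enzymes of this family couple the oxidation of 2-oxoglutarate to succinate and carbon dioxide with the oxidation of a second substrate, and they need iron and oxygen. TET enzymes oxidise 5-methylcytosine in DNA, most JmjC enzymes remove methyl groups from histone lysines, and other branches hydroxylate collagen or hypoxia-inducible factor (HIF) or repair alkylated DNA and RNA. In blood cells Tet2 and Kdm6a are known as tumour suppressors in myeloid leukemia.

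Library totals ran from 913482 to 10271698 counts and were uneven within the Ogdh groups, at 5680900 and 1159021 for shOgdh346 and 913482 and 4627632 for shOgdh2081. Levels are given in CPM, each count scaled to its library's total over the tested genes with TMM factors. Ogdh itself measured 60.8 and 60.8 CPM under shOgdh346 and 51.5 and 52.4 CPM under shOgdh2081, against 248 and 267 CPM in control BFP positive cells at day 4 (log2 fold change of both hairpins -2.19 ± 0.09 (SE), adjusted p 1.63e-30, edgeR). Of 7 markers of myeloid progenitors, Kit had a median of 504 CPM over the libraries, Ptprc 10.3 CPM and Csf2rb 5.35 CPM, while Cebpa had 0, Mpo 1, Cd34 2 and Spi1 50 counts in all libraries together. Of 5 monocyte and neutrophil markers 4 were at 0 in every library, and the erythroid regulators Gata1 (median 320 CPM) and Klf1 (median 204 CPM) were present. In bulk RNA, fewer cells of a type and less RNA per cell cannot be told apart.

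The 48 genes spanned a wide range of levels in these cells. Among them, per kilobase of the deposited transcript length, averaged over the 14 libraries, Kdm5c (30.5 CPM per kilobase), a demethylase of H3K4, and Kdm3a (28.4), a demethylase of H3K9, stood highest. Kdm4a (21.7) and Jmjd1c (21.3) followed. Alkbh5 (19.1), an eraser of N6-methyladenosine in RNA, Jmjd6 (18.98) and the HIF asparaginyl hydroxylase Hif1an (17.8) came next, and their ranges over libraries overlapped with those of Kdm4a. For nearly every member the deposited length was that of all annotated exons of the gene together, which can exceed the expressed transcript. Without division by length, Jmjd1c (379 CPM) and Kdm2a (240.5 CPM) stood highest, then Kdm3a (234 CPM) and Kdm5c (217 CPM). At the low end, Tet1 (0.0863), P4ha2 (0.411), Plod2 (0.510) and Kdm4d (0.761) were each under 1 CPM per kilobase. Within the TET enzymes Tet3 was the most abundant at 9.06, Tet2 had 1.73, and Tet1 had 0 counts in both shOgdh346 libraries. Of the HIF prolyl hydroxylases Egln2 had 15.2 and Egln1 3.65 CPM per kilobase, while Egln3 had no count. A count of 0 allows up to 3 counts at 95% confidence, a limit that covers counting error only.

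The remaining levels, as mean CPM per kilobase over the 14 libraries, are given by subclass. Among the KDM2 and KDM7 genes Kdm2a had 16.8, Phf2 13.9, Kdm7a 6.42, Phf8 6.25 and Kdm2b 5.04. Kdm3b had 9.27, below its relatives Kdm3a and Jmjd1c, and among the KDM4 genes Kdm4b had 8.96 and Kdm4c 7.06. Kdm5a had 12.9 and Kdm5b 9.54 beside the more abundant Kdm5c, while Kdm6a had 12.2 and Kdm6b 6.36. Of the proteins with a JmjC domain alone, Kdm8 had 6.26, Jmjd4 5.20 and Jmjd8 3.90.

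Outside the chromatin enzymes, P4ha1 (12.1) and the lysyl hydroxylase Plod3 (12.9) were the more abundant of the 6 collagen prolyl and lysyl hydroxylase members, with Plod1 at 2.47 and P4htm at 1.33 CPM per kilobase. P4ha3, another collagen prolyl hydroxylase that is not among the 48 genes, had 61.5 CPM per kilobase, above every member. In the AlkB family, of which some but not all members repair or demethylate nucleic acids, Alkbh7 had 17.03, Alkbh3 12.75, Alkbh4 12.1, Alkbh8 11.1, Alkbh1 7.94, Fto 4.93, Alkbh2 4.90 and Alkbh6 1.01. The OGFOD genes lay close together, at 12.3 for Ogfod2, 10.9 for Ogfod1 and 8.67 for Ogfod3. Phyh had 5.75 and Tmlhe 2.87.

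**Figure D1:**
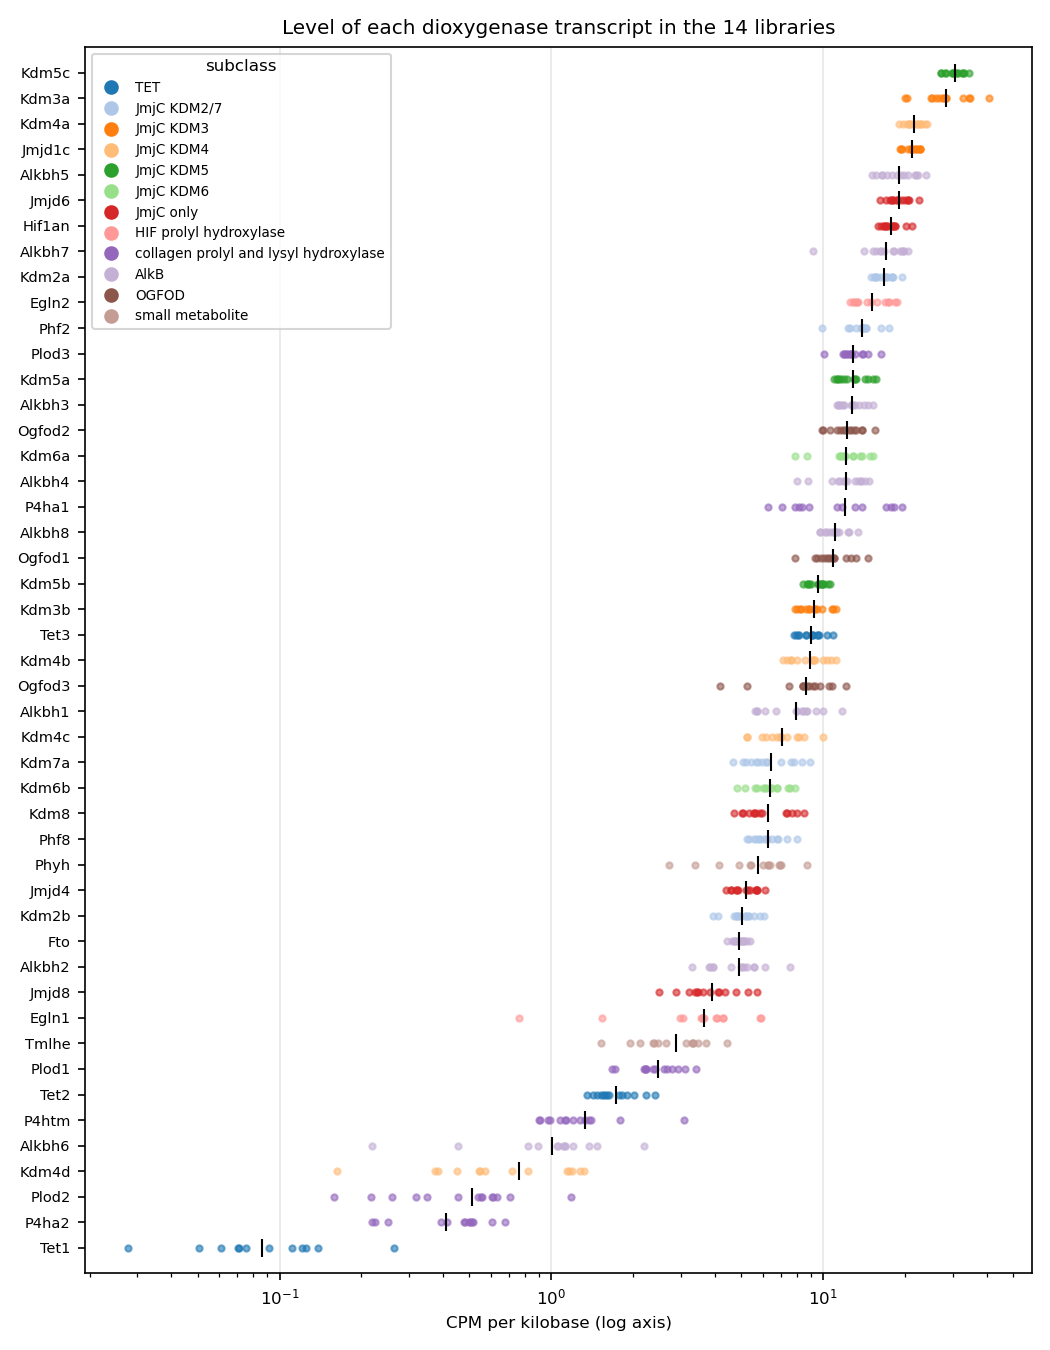
Level of each of the 47 detected members in the 14 libraries, in CPM per kilobase on a log axis. Points are libraries coloured by subclass, black ticks are means, libraries at 0 are not drawn, and Egln3 (0 counts) is left out. Kdm5c and Kdm3a lie at the top and Tet1 lies lowest.

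Summed levels are given here as a description, without a test. All members together summed to 472 and 480 CPM per kilobase with shOgdh346 and 484 and 477 with shOgdh2081, against 438 and 445 in control BFP positive and 455 and 442 in control BFP negative cells at day 4. Controls of day 2 had 459 to 474 and those of day 0 had 443 and 451, so that the Ogdh libraries overlapped with BFP negative cells of day 2. The 3 KDM3 genes summed to between 65.0 and 71.5 in the Ogdh libraries, against 57.0 and 59.0 in control BFP positive and 54.6 and 58.7 in control BFP negative cells. The 3 KDM5 genes summed to between 55.3 and 60.1, against 49.6 and 50.2 in control BFP positive and 50.3 and 51.1 in control BFP negative cells, and 54.6 and 55.4 at day 0. By contrast, the 9 AlkB genes summed to between 90.6 and 92.9 in the Ogdh libraries, within the range of 85.1 to 94.7 in the day 4 controls. The 3 OGFOD genes summed to 30.9 and 27.7 with shOgdh346 and 26.2 and 31.9 with shOgdh2081, against 33.0 and 36.1 in control BFP positive and 31.1 and 31.1 in control BFP negative cells of day 4.

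Upstream sequence is shown for P4ha1, Kdm3a and Egln1, since each is known as a target of HIF and each differed among the control groups described below. P4ha1 encodes the catalytic subunit of collagen prolyl 4-hydroxylase, Kdm3a an H3K9 demethylase and Egln1 the main HIF prolyl hydroxylase. The 250 bases before RefSeq's start site are from RefSeq (GRCm38.p6), in the direction of transcription, at chr10:59323046-59323295 (plus strand) for P4ha1, chr6:71632918-71633167 (minus strand) for Kdm3a and chr8:124949255-124949504 (minus strand) for Egln1. Capitals mark ACGTG or GCGTG on either strand, the core of the hypoxia response element.
P4ha1: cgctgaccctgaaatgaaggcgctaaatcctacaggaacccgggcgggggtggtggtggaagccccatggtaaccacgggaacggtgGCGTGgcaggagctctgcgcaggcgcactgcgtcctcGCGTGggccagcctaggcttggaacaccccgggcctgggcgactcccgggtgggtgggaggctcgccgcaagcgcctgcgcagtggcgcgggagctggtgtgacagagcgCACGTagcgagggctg
Kdm3a: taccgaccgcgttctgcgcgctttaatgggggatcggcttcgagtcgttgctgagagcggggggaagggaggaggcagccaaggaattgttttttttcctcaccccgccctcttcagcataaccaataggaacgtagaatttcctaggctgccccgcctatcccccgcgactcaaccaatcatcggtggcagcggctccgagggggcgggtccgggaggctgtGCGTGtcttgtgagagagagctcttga
Egln1: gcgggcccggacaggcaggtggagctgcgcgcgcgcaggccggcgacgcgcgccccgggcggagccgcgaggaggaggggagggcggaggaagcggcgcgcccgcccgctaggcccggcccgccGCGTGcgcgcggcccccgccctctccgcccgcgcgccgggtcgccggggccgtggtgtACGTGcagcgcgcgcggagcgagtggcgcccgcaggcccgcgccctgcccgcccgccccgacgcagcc
P4ha1 had 3 matches, the farthest starting 163 and the nearest 16 bases before the start site. Egln1 had 2, the nearer at 68 bases, and Kdm3a had 1, at 27 bases. The annotated genes reach beyond RefSeq's start site, to 71632990 for Kdm3a and 124949324 for Egln1. The match of Kdm3a and the nearer one of Egln1 thus lay inside the annotated genes. For Kdm3a 3 promoters were listed, and only the one nearest the annotated start of the gene is shown. A promoter was listed for 40 members, of which 23 (57.5%) held a match, as did 38.6% of the 27025 genes with a promoter. These shares are not on a like footing. The promoter nearest the annotated start of the gene was taken for members, but the first listed for all genes, expressed or not. A match is a run of letters and not a shown binding site.

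With Ogdh knocked down, 10 of the 46 tested members were higher than in control BFP positive cells at day 4 and 0 were lower at an adjusted p under 0.05 (edgeR). Over all tested genes 16.1% were called, 7.72% higher and 8.36% lower. The median log2 fold change was 0.17 over the members and 0.0002 over all tested genes. At an unadjusted p under 0.05, 2 members were lower (Kdm2b and Phf2), and DESeq2 called 4 members higher and 0 lower, beside 6.56% of all tested genes. Without control BFP positive replicate 1 only Kdm3b and Alkbh5 were called, 2 members beside 4.35% of all tested genes. Without control replicate 2 there were 5 (8.45%), and without shOgdh346 replicate 1 there were 6 (11.1%). Of the 19 tested TET and KDM genes 8 were higher, with a median of 0.22, and of the other 27 members 2 were higher, with a median of 0.07, although the difference between these shares was not tested. The comparison sets 4 Ogdh libraries, 2 per hairpin, against 2 control libraries. It takes the mean of the 2 hairpins, so a call does not mean that each hairpin gave a call when taken alone.

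**Figure D2:**
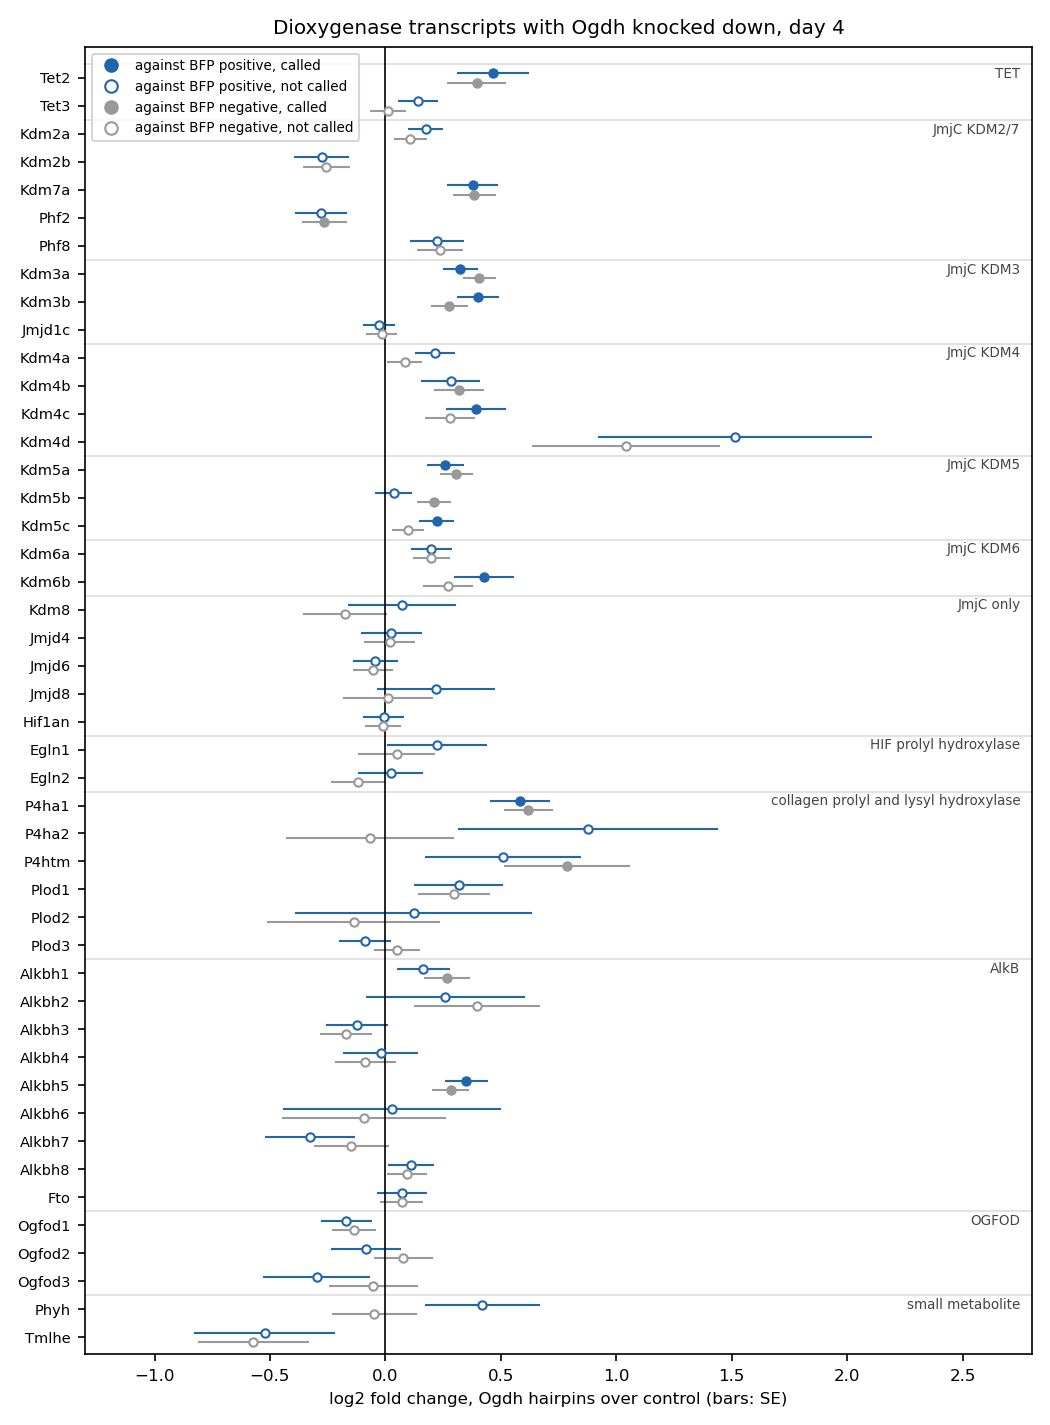
Log2 fold change of each tested member, both Ogdh hairpins over control cells at day 4, by subclass. Blue is against BFP positive and grey against BFP negative control cells, filled points have an adjusted p under 0.05, and bars are SE. Filled blue points lie between 0.22 (Kdm5c) and 0.58 (P4ha1).

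Among the TET enzymes Tet2 (chr3:133463679-133545139, GRCm38) was the member that rose. It measured 34.1 and 37.65 CPM under shOgdh346 and 40.6 and 29.8 CPM under shOgdh2081, against 22.9 and 26.1 CPM in control BFP positive and 24.9 and 25.7 CPM in control BFP negative cells at day 4. All Ogdh libraries were above all day 4 controls, but a day 0 library (31.9 CPM) was above the lowest of them. Its log2 fold change was 0.47 ± 0.16 (SE, adjusted p 0.0316, edgeR). The call was lost in 9 of 16 alternatives, among them the length correction (adjusted p 0.141) and leaving out shOgdh346 replicate 1 (0.0618), shOgdh346 replicate 2 (0.0517), shOgdh2081 replicate 1 (0.0673), control replicate 1 (0.37) or control replicate 2 (0.068). Tet3 had a log2 fold change of 0.14 ± 0.09 and was not called.

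Of the 3 KDM3 genes 2 rose, and of the 10 calls that on Kdm3a was kept in the most alternatives (15 of 16). With the hairpins taken alone, Kdm3a was called with shOgdh346 but not with shOgdh2081. Kdm3a (chr6:71588972-71632990) measured 284 and 335.5 CPM under shOgdh346 and 285 and 268 CPM under shOgdh2081, against 228 and 233 CPM in control BFP positive and 205 and 227 CPM in control BFP negative cells. Every Ogdh library was above every one of the 10 control libraries, whose highest was 234 CPM. On the log2 scale the fold change was 0.32 ± 0.08 (SE, adjusted p 0.00172, edgeR), and the call was lost without control replicate 1 (0.0722).

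Kdm3b (chr18:34777047-34838660), the close paralog of Kdm3a, measured 154 and 124.9 CPM under shOgdh346 and 152 and 157 CPM under shOgdh2081, against 116 and 111 CPM in control BFP positive and 122 and 125.6 CPM in control BFP negative cells. The groups did not overlap against BFP positive cells, while shOgdh346 replicate 2 lay below a BFP negative library. The log2 fold change was 0.40 ± 0.09 (adjusted p 0.00109, edgeR), lost without shOgdh346 replicate 1 (0.0667) and with thinned libraries (0.0621). An antisense RNA gene, Gm26538, shares 24.6% of the exonic bases of Kdm3b, and without a stated strand setting their reads cannot be told apart. The third gene of the group, Jmjd1c, had a log2 fold change of -0.03 ± 0.07 and was not called.

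In the KDM2 and KDM7 group 1 of 5 members rose. Kdm7a (chr6:39136623-39206789), which removes methyl groups from H3K9 and H3K27, measured 76.7 and 83.9 CPM under shOgdh346 and 89.9 and 78.5 CPM under shOgdh2081, against 54.8 and 70.4 CPM in control BFP positive and 60.2 and 61.8 CPM in control BFP negative cells. The Ogdh libraries were above all 10 control libraries, with a log2 fold change of 0.38 ± 0.11 (adjusted p 0.0116, edgeR). Without control replicate 1, the lower of the pair, the log2 fold change was 0.19 and the adjusted p 0.506. Kdm2b (-0.28 ± 0.12) and Phf2 (-0.28 ± 0.11) had negative log2 fold changes and missed the threshold, with adjusted p of 0.1001 and 0.0786.

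Of the KDM4 genes, which act on H3K9 and H3K36, Kdm4c (chr4:74242497-74405860) rose. It measured 46.6 and 58.2 CPM under shOgdh346 and 49.4 and 47.4 CPM under shOgdh2081, against 37.9 and 35.9 CPM in control BFP positive and 39.3 and 40.5 CPM in control BFP negative cells. No control library of any day exceeded 42.9 CPM, so the groups did not overlap. Its log2 fold change was 0.39 ± 0.13 (adjusted p 0.0310, edgeR), and the call was lost in 8 of 16 alternatives, including those without shOgdh346 replicate 2 (0.0703), shOgdh2081 replicate 2 (0.0975), control replicate 1 (0.173) or control replicate 2 (0.166). Kdm4a (0.21 ± 0.09) and Kdm4b (0.28 ± 0.13) were not called, and Kdm4d had 109 counts in all libraries together and a log2 fold change of 1.51 ± 0.59 (adjusted p 0.0696). Against BFP negative cells of day 4 Kdm4c was not called, while Kdm4b was.

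The KDM5 group, demethylases of H3K4, showed 2 small changes. Kdm5a (chr6:120364124-120444574) measured 207 and 216 CPM under shOgdh346 and 221.5 and 202 CPM under shOgdh2081, against 165 and 186 CPM in control BFP positive and 163 and 174 CPM in control BFP negative cells, with a log2 fold change of 0.26 ± 0.08 (adjusted p 0.0158, edgeR). Its Ogdh libraries were above all 10 controls, of which the day 0 libraries reached 187.5 CPM. The call on Kdm5a was lost with the length correction (0.19), without control replicate 1 (0.363) and with only the deeper library of either hairpin (0.0716).

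Kdm5c (chrX:152233020-152274535) measured 221 and 223 CPM under shOgdh346 and 246 and 233 CPM under shOgdh2081, against 199 and 193 CPM in control BFP positive and 214 and 214 CPM in control BFP negative cells. Day 0 control libraries, at 236 and 230 CPM, lay within the range of the Ogdh libraries. On the log2 scale the fold change was 0.22 ± 0.08 (adjusted p 0.0343, edgeR), and the call was lost without any single library of the comparison, at an adjusted p between 0.0571 (without shOgdh346 replicate 2) and 0.189 (without control replicate 2). Kdm5b had a log2 fold change of 0.04 ± 0.08.

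Kdm6b (chr11:69398508-69413675), a demethylase of H3K27, measured 54.9 and 44.5 CPM under shOgdh346 and 52.6 and 47.0 CPM under shOgdh2081, against 36.0 and 39.2 CPM in control BFP positive and 45.3 and 39.7 CPM in control BFP negative cells. It was above BFP positive controls in every Ogdh library but overlapped with BFP negative cells. The log2 fold change was 0.43 ± 0.13 (adjusted p 0.0168, edgeR), lost without shOgdh346 replicate 1 (0.22), control replicate 1 (0.267) or control replicate 2 (0.0553). Kdm6a, its X-linked relative, was above all 10 controls in every Ogdh library, at 114.7 to 128.3 CPM against at most 108 CPM, but its log2 fold change of 0.20 ± 0.09 was not called (adjusted p 0.121).

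P4ha1 (chr10:59323296-59373304) had the largest called change of the members. It measured 57.3 and 46.2 CPM under shOgdh346 and 53.7 and 48.3 CPM under shOgdh2081, against 33.5 and 36.4 CPM in control BFP positive and 32.5 and 34.5 CPM in control BFP negative cells at day 4. The groups did not overlap at day 4, and expression was 1.497-fold higher with Ogdh knocked down (log2 0.58 ± 0.13, adjusted p 0.000808, edgeR). Without control replicate 1 the log2 value was 0.52 and the adjusted p 0.0837. The related collagen and lysyl hydroxylases P4ha2, Plod1, Plod2 and Plod3 and the membrane-bound P4htm were not called, with log2 fold changes between -0.09 (Plod3) and 0.88 (P4ha2, 139 counts in all libraries).

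In the AlkB family Alkbh5 (chr11:60536381-60558512) rose, at 116 and 133.5 CPM under shOgdh346 and 123 and 130 CPM under shOgdh2081, against 103 and 90.9 CPM in control BFP positive and 108 and 99.0 CPM in control BFP negative cells. The Ogdh libraries were above all day 4 controls and overlapped with day 2 controls. Its log2 fold change was 0.35 ± 0.09 (adjusted p 0.00507, edgeR), lost without shOgdh2081 replicate 2 (0.055) or control replicate 2 (0.126). Fto, the other eraser of N6-methyladenosine, had a log2 fold change of 0.07 ± 0.11, and the tRNA enzyme Alkbh8 one of 0.11 ± 0.10.

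None of the 5 JmjC-only genes, the 2 tested HIF prolyl hydroxylases, the 3 OGFOD genes and the 2 enzymes of small metabolites was called (edgeR), and 0 of these 12 had an unadjusted p under 0.05. DESeq2 called 0 of them. Hif1an had a log2 fold change of -0.01 ± 0.09, Egln1 of 0.22 ± 0.22, and the ribosomal hydroxylase Ogfod1 of -0.17 ± 0.11. Tmlhe, which acts early in carnitine synthesis, was below all day 4 controls in every Ogdh library. It measured 5.94 and 3.42 CPM under shOgdh346 and 4.39 and 5.36 CPM under shOgdh2081, against 7.83 and 7.46 CPM in BFP positive and 7.05 and 8.34 CPM in BFP negative cells. These values rest on few reads, with 38 counts in the shOgdh346 libraries together and 335 in all 14 libraries. Its log2 fold change of -0.52 ± 0.31 was not called (adjusted p 0.252, edgeR).

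**Figure D3:**
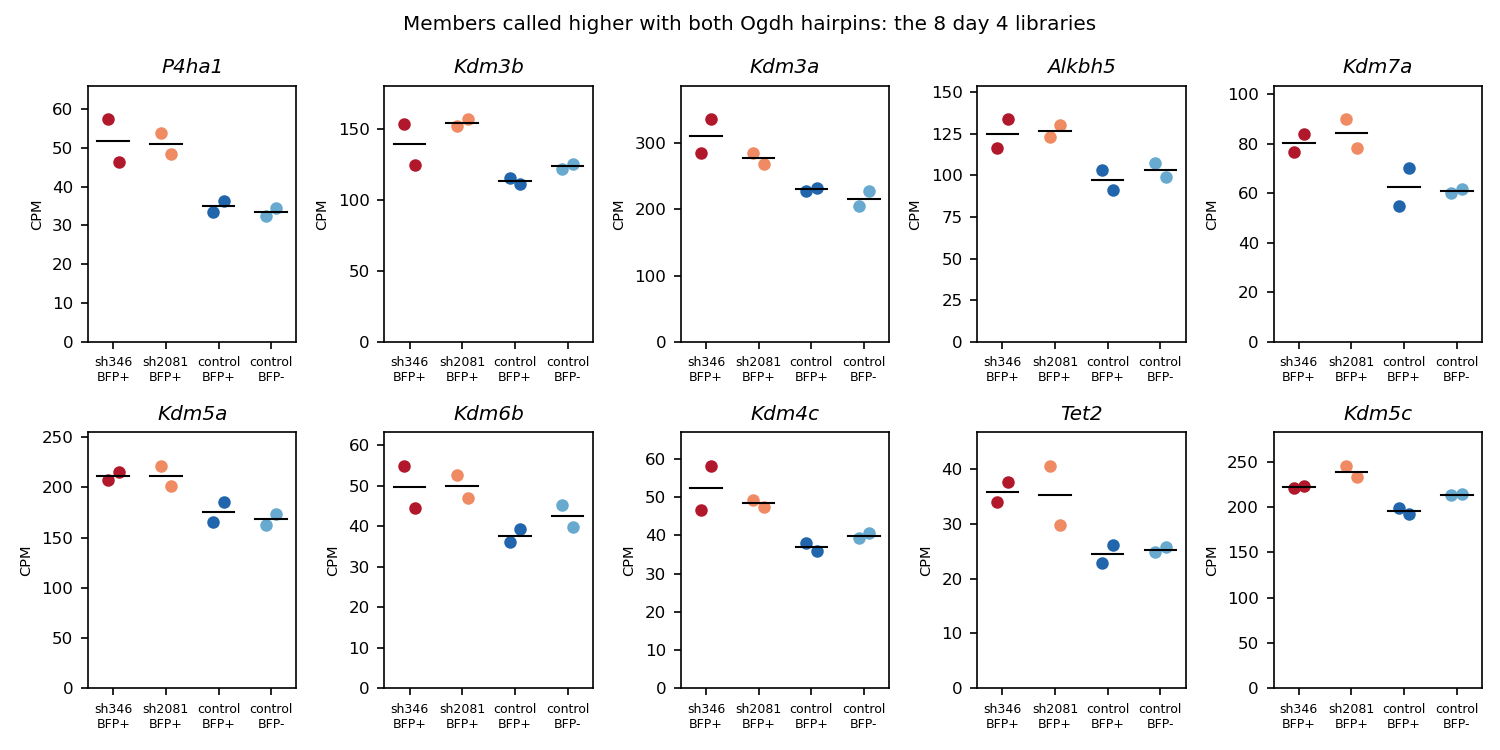
CPM of the 10 called members in the 8 day 4 libraries, on axes that start at 0. Points are libraries and lines are group means. Every Ogdh library is above both control BFP positive libraries for each gene, and Kdm3b and Kdm6b overlap with control BFP negative cells.

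Against control BFP positive cells alone, 17 members (37%) were above both libraries in all 4 Ogdh libraries and 2 (4.35%) below, against 17.1% and 19% of all tested genes. Read over all day 4 controls, 13 of the 46 tested members (28.3%) were above all 4 day 4 control libraries in all 4 Ogdh libraries, against 11.2% of all tested genes, and 1 member (2.17%), Tmlhe, was below them, against 13.3%. Set against all 10 control libraries, 5 members (10.9%) were above and 0 below, against 6.89% and 8.1% of all tested genes, and these were Kdm7a, Kdm3a, Kdm4c, Kdm5a and Kdm6a. All 5 are KDM genes, and TET and KDM genes made up 19 of the 46 tested members. Of the 5, Kdm6a was not called, and the call on Kdm5a was lost with the length correction (adjusted p 0.19, edgeR). Whether 10.9% differs from 6.89% was not tested.

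Transcript length, as deposited, moved with the fold change. The median length was 9318 bases for tested TET and KDM genes, 3890 for the other tested members and 4300 for all tested genes. Across all tested genes the median log2 fold change was -0.07 in the 2159 shortest and 0.07 in the 2158 longest genes, and of these longest genes 14.3% were higher and 4.31% lower. The 14 members among those longest genes had a median of 0.19, and 5 of them were higher. After a correction for length 7 members were higher (Kdm7a, Kdm3a, Kdm3b, Kdm4c, Kdm6b, P4ha1 and Alkbh5) and 2 lower (Kdm2b and Jmjd1c), in place of 10 and 0. Under this correction 15.3% of all tested genes were called, 7.06% higher and 8.23% lower.

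**Figure D4:**
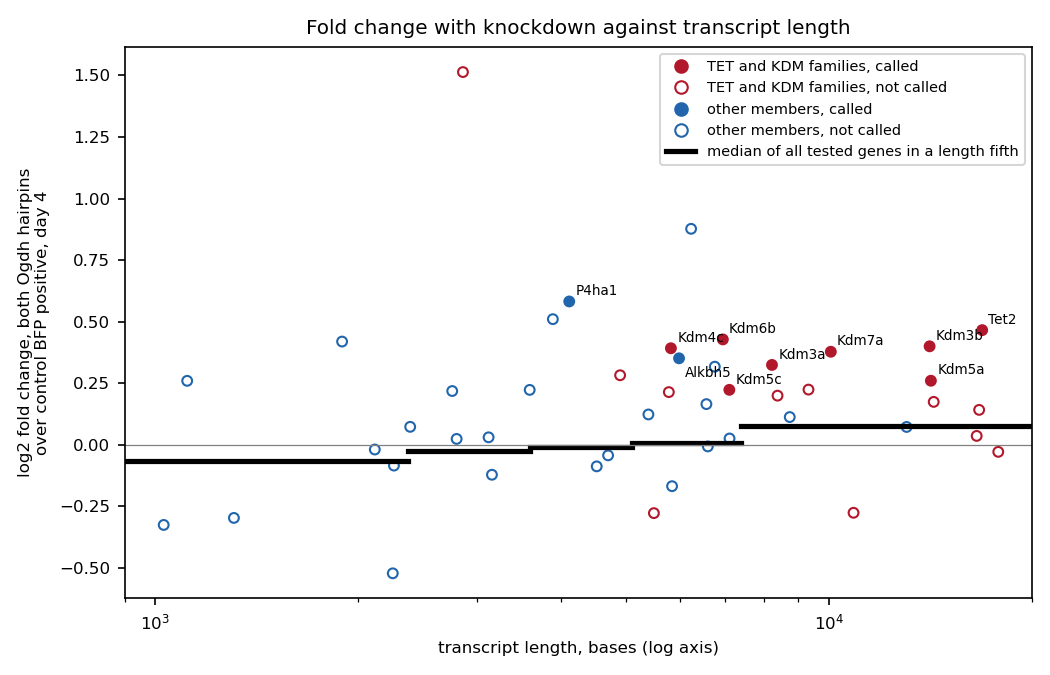
Log2 fold change of the tested members, both Ogdh hairpins over control BFP positive cells at day 4, against transcript length on a log axis. Filled points have an adjusted p under 0.05, and black lines give the median of all tested genes in 5 length classes of equal size. TET and KDM genes lie mostly to the right, where the median of all genes is highest (0.07).

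Taken alone, shOgdh346 gave 7 higher and 2 lower members (beside 11.2% of all tested genes, 5.58% higher and 5.6% lower). The hairpin shOgdh2081 gave 5 higher and 0 lower (beside 11.6%, 6.02% higher and 5.53% lower). With shOgdh2081 14 members had an unadjusted p under 0.05, for which no share of all tested genes is given here. DESeq2 called 1 member with shOgdh2081, beside 4.3% of all tested genes. Both comparisons use the same 2 control libraries. Kdm3b, P4ha1 and Alkbh5 were called with each hairpin, but not under every alternative. Of the other calls for the hairpins together, Tet2, Kdm3a, Kdm5a and Kdm6b were called only with shOgdh346. Kdm7a and Kdm5c were called only with shOgdh2081, and Kdm4c with neither. With shOgdh346 Alkbh5 was lost without any single library of the comparison (0.0708 to 0.274), and Kdm3b without either control library (0.108 and 0.122) or shOgdh346 replicate 1, where its log2 fold change was 0.13 (adjusted p 0.72). With shOgdh2081 Alkbh5 was lost without shOgdh2081 replicate 2 (0.279) or control replicate 2 (0.129). The largest changes were P4ha1 (0.65 ± 0.14, adjusted p 0.000960) and Tet2 (0.53 ± 0.17, adjusted p 0.0368) for shOgdh346, and P4ha1 (0.51 ± 0.15, adjusted p 0.0174) and Kdm3b (0.45 ± 0.11, adjusted p 0.00197) for shOgdh2081. With shOgdh346 P4ha1 was lost without shOgdh346 replicate 1 (0.371) or control replicate 1 (0.0649), and Tet2 and Kdm2b without any single library of the comparison (0.0726 to 0.339 and 0.0521 to 0.423). With shOgdh2081 P4ha1 was lost without either hairpin library (0.058 and 0.13) or control replicate 1 (0.214), and Kdm3b without shOgdh2081 replicate 2 (0.128). The lower members with shOgdh346 were Kdm2b (-0.40 ± 0.14, adjusted p 0.0435) and Phf2 (-0.37 ± 0.13, adjusted p 0.0491), and with the library number as a block both were lost (0.0561 and 0.0822). Phf2 measured 54.5 and 76.2 CPM with shOgdh346, against 76.1 and 79.3 CPM in control BFP positive cells, and without shOgdh346 replicate 1 its log2 fold change was -0.02 (adjusted p 0.968), while leaving out a control library gave 0.199 and 0.212. The difference between the hairpins was called for 0 members, with 0 at an unadjusted p under 0.05 and 0 by DESeq2, beside 0.0834% of all tested genes (0.0649% higher and 0.0185% lower with shOgdh2081).

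Against control BFP negative cells of day 4, 11 members were higher and 1 lower with Ogdh knocked down, beside 20.8% of all tested genes (10.5% higher and 10.3% lower). The same Ogdh libraries enter this comparison and the one above. P4ha1 (0.62 ± 0.11, adjusted p 1.31e-05) and P4htm (0.79 ± 0.27, adjusted p 0.0314) changed most. P4htm, a prolyl hydroxylase of the endoplasmic reticulum membrane, measured 6.99 and 12.0 CPM under shOgdh346 and 4.39 and 5.36 CPM under shOgdh2081, against 3.53 and 3.78 CPM in control BFP negative cells, on 4 to 40 counts per library, and its call was lost without shOgdh346 replicate 2 (0.0723), shOgdh2081 replicate 2 (0.378) or either control library (0.0854 and 0.178). Kdm3a (0.41 ± 0.07, adjusted p 1.66e-05), Kdm5a (0.31 ± 0.07, adjusted p 0.00109) and Kdm7a (0.39 ± 0.09, adjusted p 0.0017) were higher here too, and these calls held without any single library. Tet2 (0.39), Kdm3b (0.28) and Alkbh5 (0.28) were also higher, with calls lost in 9, 6 and 5 of 16 alternatives. Among these were leaving out shOgdh346 replicate 1 for Tet2 (0.0582) and Kdm3b (0.269), shOgdh2081 replicate 1 for Tet2 (0.054), shOgdh2081 replicate 2 for Kdm3b (0.0766) and Alkbh5 (0.0971), control replicate 1 for Tet2 (0.0565), and control replicate 2 for Tet2 (0.107) and Alkbh5 (0.191). Kdm4c, Kdm5c and Kdm6b, called higher against BFP positive cells, were not called against BFP negative cells. Kdm4b (0.32), Kdm5b (0.21) and Alkbh1 (0.27) were called higher against BFP negative but not against BFP positive cells, a difference that was not tested. Their calls were lost in 6, 10 and 11 of 16 alternatives. Kdm4b was lost without shOgdh346 replicate 1 (0.172), shOgdh2081 replicate 2 (0.346) or control replicate 1 (0.135), and Kdm5b and Alkbh1 without any single library (0.0538 to 0.209 and 0.0538 to 0.457) other than shOgdh2081 replicate 1. Phf2 was lower (-0.27 ± 0.10, adjusted p 0.0418), but without shOgdh346 replicate 1 its log2 fold change was -0.09 (adjusted p 0.665), and the call was also lost without either shOgdh2081 library (0.0633 and 0.193) or either control library (0.125 and 0.134), and with the library number as a block (0.0522).

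Markers of other cell types moved with these groups. The 4 mast cell markers (Cpa3, Ms4a2, Fcer1a and Mcpt8) summed to between 118 and 133.5 CPM with shOgdh346 and between 116 and 133 CPM with shOgdh2081, against 55.5 to 63.4 CPM in control BFP positive, 42.6 to 48.6 CPM in control BFP negative cells of day 4 and 18.1 to 20.7 CPM at day 0, and most of the sum was Ms4a2, while Mcpt8 had 1 count in all libraries. The 4 erythroid markers summed to 649.5 to 724.5 CPM with shOgdh346 and 638 to 649 CPM with shOgdh2081, against 572 to 607 CPM in control BFP positive and 596 to 625.5 CPM in control BFP negative cells. Of the erythroid markers Car1 (1.49 ± 0.11, adjusted p 3.80e-16) and Hbb-bt (1.23 ± 0.17, adjusted p 1.20e-07) were higher against control BFP positive cells. For Gata1 and Klf1 no knockdown result is given here, and the higher sum does not show that each of the 4 markers rose. Over all 14 libraries Gata1 ran from 293 to 355 CPM and Klf1 from 179.6 to 259.5 CPM. Of the myeloid progenitor markers Csf2rb was higher (1.08 ± 0.30, adjusted p 0.00799), an uncertain value because its close paralog Csf2rb2 can share its reads. The 4 fibroblast or stroma markers summed to 26.5 to 28.0 CPM with shOgdh346 and 25.2 to 30.3 CPM with shOgdh2081, against 36.7 to 40.6 CPM in control BFP positive and 33.6 to 35.9 CPM in control BFP negative cells of day 4, and 25.8 to 28.4 CPM at day 0. Among them Col1a2, which encodes a collagen chain, was lower (-0.72 ± 0.18, adjusted p 0.00246), Dcn was not called (0.07 ± 0.23), Col1a1 had 3 counts in all libraries and Pdgfra 0. The part of these markers in the result, that of the collagen hydroxylases included, was not tested.

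A list of 48 related genes held other dioxygenases, enzymes that write the same marks and HIF pathway partners, and 39 of them were tested. In Ogdh hairpin cells against control BFP positive cells 4 were higher and 3 lower, with a median log2 fold change of 0.01. Over all tested genes 7.72% were higher and 8.36% lower, and whether the related genes differ from these shares was not tested. The histone methyltransferases Kmt2d (0.35 ± 0.07, adjusted p 0.000436), Ezh1 (0.61 ± 0.15, adjusted p 0.00269) and Kmt2a (0.32 ± 0.08, adjusted p 0.00304) and the collagen prolyl hydroxylase P4ha3 (0.33 ± 0.08, adjusted p 0.00116) were the 4 higher ones. The lower ones, Dnmt1 (-0.26), Ezh2 (-0.24) and Kdm1a (-0.21), encode the maintenance DNA methyltransferase, an H3K27 methyltransferase and a histone demethylase that uses FAD in place of 2-oxoglutarate.

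The 5 control groups differ in time, doxycycline, sorting and induction of the control hairpin. An F test (edgeR) over the 5 control groups called 9 members (P4ha1, Egln1, Kdm6a, Kdm3a, Alkbh5, Alkbh1, Phyh, Ogfod1 and Tet3), beside 27.6% of all tested genes. Comparisons with day 0 combine time, doxycycline and sorting, which cannot be told apart.

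P4ha1 measured 29.1 and 25.8 CPM at day 0. At day 2 it had 80.6 and 72.9 CPM in BFP positive and 70.2 and 75.1 CPM in BFP negative cells, and at day 4 it had 33.5 and 36.4 CPM in BFP positive and 32.5 and 34.5 CPM in BFP negative cells. The day 2 libraries were thus above all others, in BFP positive and BFP negative cells alike. Over day 0 the log2 fold change at day 2 was 1.496 ± 0.15 in BFP positive (adjusted p 3.49e-12) and 1.41 ± 0.14 in BFP negative cells (adjusted p 1.08e-11). At day 4 over day 2 these were -1.16 ± 0.14 (adjusted p 9.62e-09) in BFP positive and -1.11 ± 0.12 (adjusted p 8.71e-11) in BFP negative cells. The Ogdh libraries of day 4, at 46.2 to 57.3 CPM, lay between the controls of day 2 and of day 4.

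Egln1 (chr8:124908587-124949324) was the member that differed most between induced and uninduced control cells. It measured 12.8 and 14.5 CPM at day 0. At day 2 it had 5.51 and 2.73 CPM in BFP positive cells, on 16 and 4 counts, and 21.0 and 21.2 CPM in BFP negative cells, on 49 and 91 counts, and at day 4 it had 12.8 and 10.7 CPM in BFP positive and 14.6 and 13.0 CPM in BFP negative cells. The BFP positive cells of day 2 were below every other library and the BFP negative cells of that day above every other library. At day 2 the log2 fold change of BFP positive over BFP negative cells was -2.20 ± 0.29 (adjusted p 1.18e-07), and at day 4 it was -0.17 ± 0.22 (adjusted p 1). The difference between these days, a test chosen after seeing the data, was 2.03 ± 0.38 (adjusted p 0.000734), and the call was lost without control BFP positive day 4 replicate 1 (0.0709) and by DESeq2 (0.0694). Beside it, 0.658% of all tested genes were called (0.417% higher and 0.241% lower). In BFP positive cells Egln1 changed by -1.57 ± 0.33 at day 2 over day 0 (adjusted p 0.000379) and by 1.39 ± 0.34 at day 4 over day 2 (adjusted p 0.00328, lost without BFP positive day 4 replicate 1, 0.0871). In BFP negative cells of day 4 it was lower than at day 2 (-0.64 ± 0.18, adjusted p 0.0169), a call lost without BFP negative replicate 2 of day 4 (0.288) or day 2 (0.178). It was also higher in BFP negative cells of day 2 than at day 0 (0.64 ± 0.21, adjusted p 0.044), a call lost without any single library of that comparison (0.0732 to 0.292).

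Kdm6a was the other member called between BFP positive and BFP negative cells of day 2, beside 6.23% of all tested genes (3% higher and 3.22% lower). It measured 97.1 and 99.5 CPM in BFP positive and 65.9 and 73.5 CPM in BFP negative cells, and 95.7 to 108 CPM in the other controls, so that the BFP negative cells of day 2 were the low group. On the log2 scale the fold change was 0.48 ± 0.11 (adjusted p 0.0033), lost without BFP positive day 2 replicate 1 (0.0663). In BFP negative cells Kdm6a was lower at day 2 than at day 0 (-0.45 ± 0.11, adjusted p 0.00304) and higher at day 4 than at day 2 (0.58 ± 0.10, adjusted p 2.5e-05). Between BFP positive and BFP negative cells of day 4, 0 members were called (edgeR and DESeq2), with 1 member, Kdm5b, at an unadjusted p under 0.05, beside 0.0741% of all tested genes (0.0371% higher and 0.0371% lower).

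Kdm3a measured 167 and 165 CPM at day 0. At day 2 it had 206 and 234 CPM in BFP positive and 220.5 and 213 CPM in BFP negative cells, and at day 4 it had 228 and 233 CPM in BFP positive and 205 and 227 CPM in BFP negative cells. Both day 0 libraries were below all others. Over day 0 its log2 fold change at day 2 was 0.39 ± 0.09 in BFP positive (adjusted p 0.00194) and 0.38 ± 0.09 in BFP negative cells (adjusted p 0.00285). At day 4 it was 0.47 ± 0.09 in BFP positive (adjusted p 0.000348) and 0.39 ± 0.09 in BFP negative cells (adjusted p 0.0019). In BFP negative cells the call was lost at day 2 without day 0 replicate 2 (0.0512), and at day 4 without that library (0.065) or BFP negative replicate 2 (0.148).

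Over day 0, 3 members were higher and 4 lower at day 2 in BFP positive cells (beside 17.9% of all tested genes, 9.1% higher and 8.77% lower), and 5 higher and 1 lower in BFP negative cells (10.3%, 5.33% higher and 4.98% lower). At day 4, 1 was higher and 1 lower than at day 0 in BFP positive cells (7.11%, 3.46% higher and 3.65% lower), and 2 were higher and 0 lower in BFP negative cells (8.03%, 3.84% higher and 4.19% lower). In the BFP negative cells 10 members had an unadjusted p under 0.05 by edgeR, a threshold for which no share of all tested genes is given here. DESeq2 called 1 member there, beside 2.3% of all tested genes. Between day 4 and day 2, 2 members were higher and 2 lower in BFP positive (11.9%, 5.88% higher and 6.04% lower) and 2 higher and 3 lower in BFP negative cells (6.84%, 3.04% higher and 3.8% lower). All these comparisons share control libraries with each other.

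Alkbh5 measured 98.3 and 94.1 CPM at day 0, 131.9 and 143.1 CPM in BFP positive and 119 and 112 CPM in BFP negative cells of day 2, and 103 and 90.9 CPM in BFP positive and 108 and 99.0 CPM in BFP negative cells of day 4. The induced cells of day 2 stood above all other controls, with a log2 fold change over day 0 of 0.50 ± 0.11 (adjusted p 0.000408). Phyh, the peroxisomal enzyme of phytanic acid breakdown, measured 6.39 and 7.81 CPM at day 0 and 13.3 and 16.6 CPM in BFP negative cells of day 2, on 18 to 71 counts (1.11 ± 0.28, adjusted p 0.00507), a call lost without day 0 replicate 1 (0.112) or BFP negative day 2 replicate 2 (0.197). At day 4 Phyh had 11.4 and 13.2 CPM in BFP negative cells (0.83 ± 0.26 over day 0, adjusted p 0.0351), a call lost without BFP negative replicate 2 (0.365), day 0 replicate 1 (0.323) or day 0 replicate 2 (0.14).

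Tet3, an oxidase of 5-methylcytosine, was lower after day 0 in BFP positive cells. It measured 182 and 160.5 CPM at day 0, 130.1 and 136 CPM in BFP positive and 161 and 133 CPM in BFP negative cells of day 2, and 134.7 and 145 CPM in BFP positive and 153 and 152 CPM in BFP negative cells of day 4. In BFP positive cells it was lower than at day 0 by log2 values of -0.37 ± 0.10 at day 2 (adjusted p 0.00696) and -0.30 ± 0.10 at day 4 (adjusted p 0.0479), calls lost without day 0 replicate 1 (0.161 and 0.4). The day 2 call was also lost without BFP positive day 2 replicate 1 (0.13), and the day 4 call without any of its other libraries (0.0609 to 0.346). Alkbh1, at 37.1 to 44.3 CPM in all day 2 controls, was higher at day 4, with 57.3 and 56.9 CPM in BFP positive and 55.3 and 52.1 CPM in BFP negative cells (0.51 ± 0.15, adjusted p 0.0168, and 0.51 ± 0.13, adjusted p 0.00597). These calls on Alkbh1 were lost without BFP positive day 2 replicate 1 (0.418), BFP positive day 4 replicate 1 (0.126) or replicate 2 (0.0724) in BFP positive cells, and without BFP negative day 2 replicate 2 (0.117) in BFP negative cells.

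Ogfod1 measured 63.9 and 60.5 CPM at day 0, 70.9 and 74.3 CPM in BFP positive and 85.2 and 77.4 CPM in BFP negative cells of day 2, and 61.4 and 63.9 CPM in BFP positive and 57.5 and 63.2 CPM in BFP negative cells of day 4. The BFP negative cells of day 2 were above all other controls. In BFP negative cells Ogfod1 was higher at day 2 than at day 0 (0.37 ± 0.12, adjusted p 0.0298), a call lost without any single library of that comparison (0.0813 to 0.208). At day 4 it was lower than at day 2 (-0.40 ± 0.10, adjusted p 0.00897), lost without BFP negative day 2 replicate 1 (0.0688).

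**Figure D5:**
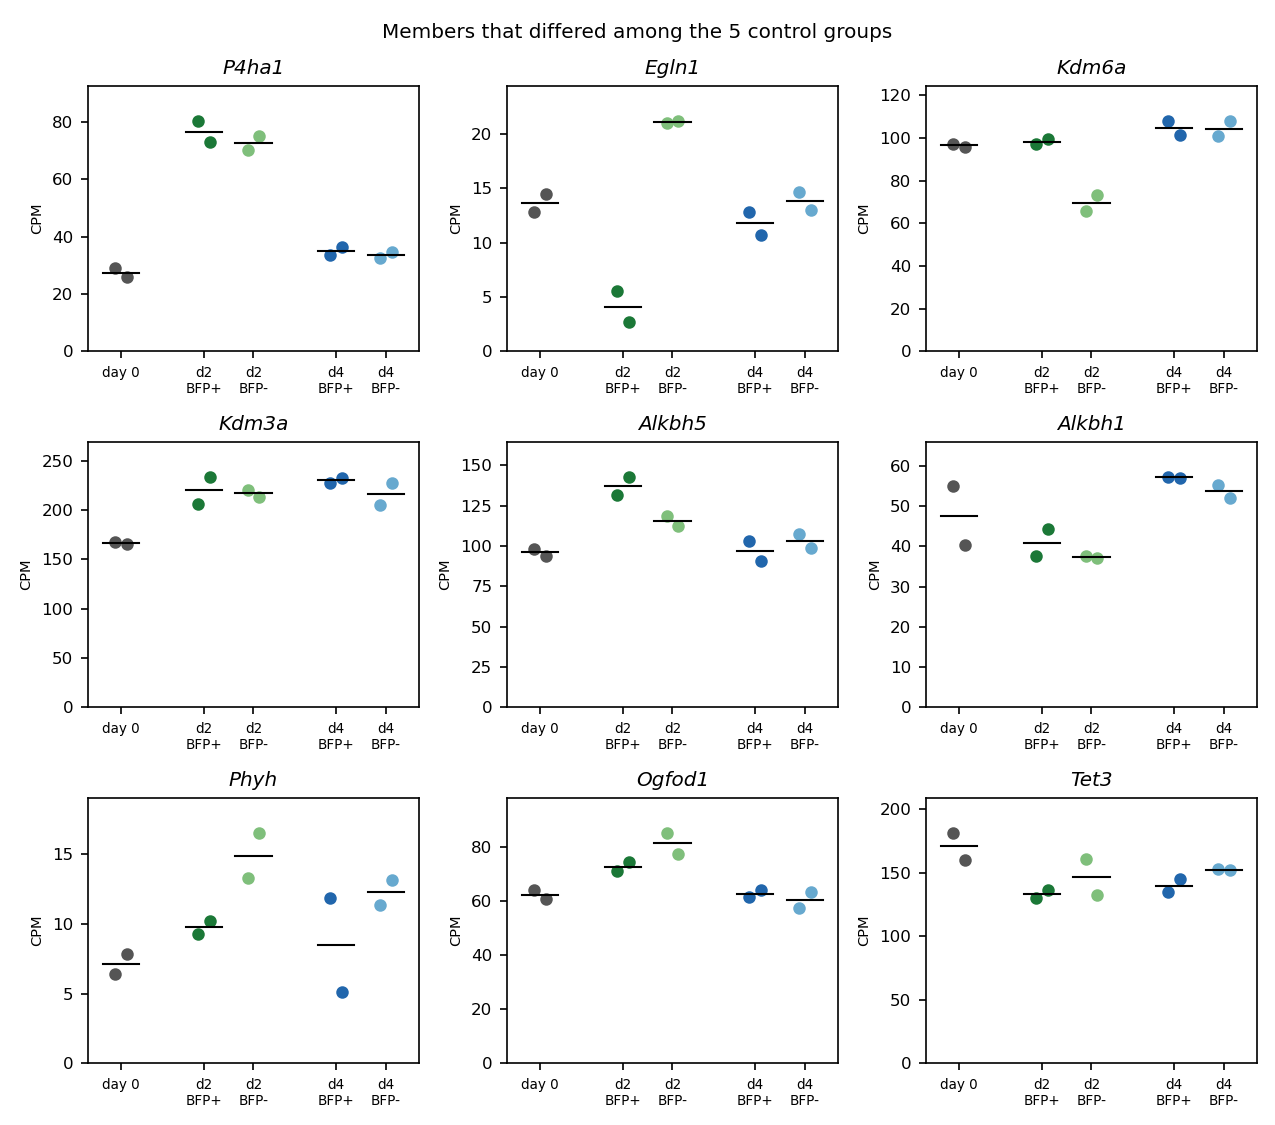
CPM of the 9 members called among the 5 control groups, in order of day, with BFP positive left of BFP negative cells at days 2 and 4. Points are libraries, lines are group means, and axes start at 0. P4ha1 peaks at day 2 in both populations (70.2 to 80.6 CPM), whereas Egln1 splits them at day 2 (5.51 and 2.73 against 21.0 and 21.2 CPM).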

How the data were processed

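The authors deposited whole-number counts of reads per gene for the 14 libraries, not normalized. The deposited table also lists transcript lengths in bases, which were used for levels per kilobase and a length correction. For nearly every member these lengths were those of all annotated exons of the gene together, not of 1 transcript. Per the labels' protocols, polyA RNA was sequenced as single-end reads of TruSeq libraries. These protocols name Trimmomatic, STAR, HTSeq and a human build. The submitters' processing notes name FastQC 0.11.5, Trimmomatic 0.36, STAR 2.6.1a and featureCounts 1.6.3 with the mouse builds mm10 and GRCm38, and 96.3% of 53360 genes shared with GENCODE M21 had the coordinates of GRCm38, so positions are given on that build. No source used here gives the strand setting. Genes that overlap others are for that reason uncertain, which applies to Kdm3b, Jmjd8 (39.3% of exonic bases shared), Alkbh2 (29.5%), Ogfod3 (17.0%), Alkbh6 (11.9%) and Plod3 (11.7%).

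Counts of the 10791 genes kept by filterByExpr entered edgeR 4.0.16 (R 4.3.3; glmQLFit and glmQLFTest), with TMM factors (0.968 to 1.013), all 14 libraries in one model and the group as its only term (7 residual and 57.6 prior degrees of freedom). Genes were called at a two-sided Benjamini-Hochberg adjusted p under 0.05 over all tested genes. All adjusted p-values are from edgeR unless DESeq2 (1.42.0) is named. Errors of log2 fold changes are SE. Library totals of 913482 to 10271698 counts limit precision for genes with few reads. The scripts were tested on simulated data. A chi-square test of the counts of each replicate pair gave 1.16 to 2.71 per degree of freedom, and no pair held identical values. Full statistics were given to every member called for the mean of both hairpins against control BFP positive cells. They were also given to the 2 largest called changes of each other comparison, and to the 4 called related genes with the smallest adjusted p. Other values named were chosen after seeing them. The members, lists and comparisons were chosen with earlier results of these data known. Alternatives were other size factors, filters and tools, blocks, a length correction, thinning to the shallowest library, and leaving out libraries.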

Additional observations from a re-analysis of the deposited data

Results flagged for a closer look

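Egln1 stood out because its difference between BFP positive and BFP negative control cells changed between the days. The log2 fold change of BFP positive over BFP negative cells was 2.03 higher at day 4 than at day 2 (SE 0.38, adjusted p 0.000734, edgeR), in a test chosen after seeing the data. It rests on 16 and 4 counts in BFP positive cells and 49 and 91 counts in BFP negative cells of day 2. Over 13 alternatives the value ran from 1.75 to 2.76, and the call was lost in 2 of them. The cause was not tested.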

How the results depend on the processing

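Over 74 calls on members and 932 recomputed values of them, 675 kept the call, 257 lost it and 0 changed sign. No call of the 10 against control BFP positive cells was kept under all 16 alternatives. In that comparison 10 members (21.7%) were called beside 16.1% of all tested genes. With no filter 6 members (12.8%) were called beside 6.04% of all tested genes, by DESeq2 4 (8.7%) beside 6.56%, with thinned libraries 4 (8.7%) beside 6.66%, and with only the deeper library of either hairpin 6 (13%) beside 11.4%. Without a single library there were 2 (4.35%, without control BFP positive replicate 1, beside 4.35%) to 8 (17.4%, without replicate 2 of shOgdh346 or replicate 1 of shOgdh2081, beside 13.5% and 13.4%). For shOgdh346 (9 members) these were 5 with no filter (4.05% of all tested genes), 2 by DESeq2 (3.75%), 1 thinned (3.81%) and 1 to 5 without a library (3.47% to 6.72%). For shOgdh2081 (5 members) they were 2 (4.36%), 1 (4.3%) and 2 (4.46%), with 3 under the length correction (10.5%) and 0 to 3 without a library (3.19% to 6.68%). Against BFP negative cells (12 members) 6 were called with no filter (8.78%), 4 by DESeq2 (7.06%), 2 thinned (6.27%) and 5 to 11 without a library (12.5% to 17.4%). Over the 5 control groups DESeq2 called 5 in place of 9 (10.7% of all tested genes in place of 27.6%). Day 4 over day 0 gave 1 member in BFP positive cells with no filter (beside 2.64% of all tested genes) and by DESeq2 (2.72%). In BFP negative cells it gave 1 by DESeq2 (2.3%). Day 2 over day 0 gave 5 in BFP positive (7.65%) and 3 in BFP negative cells (2.84%) by DESeq2. Day 4 over day 2 gave 3 in BFP positive (5.02%) and 2 in BFP negative cells (1.29%) by DESeq2. BFP positive over BFP negative cells gave 2 at day 2 by DESeq2 (2.07%), and the change of this difference between days gave 0 (0.204%). Leaving out a library left a group with a single library, so counts of those fits are not given for the control comparisons. The cause of these changes was not tested. Settings that leave out or thin libraries also hold fewer samples or reads.

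With the replicate number as a block 10 members were called for both hairpins against BFP positive cells, beside 17.1% of all tested genes. With the library number as a block there were also 10 (15.1%), but with shOgdh346 the calls on Kdm2b (0.0561), Phf2 (0.0822) and Kdm5a (0.053) were lost, as was that on Phf2 against BFP negative cells (0.0522). The correlation of same-numbered deviations over 21 pairs of groups ran from -0.209 to 0.281. By replicate number 4 pairs were over 0.1, and by library number 3 were. Such correlations cannot exclude a batch shared by some libraries, so whether the samples were paired is not known. The length correction gave 7 members higher and 2 lower, beside 7.06% and 8.23% of all tested genes. Genes with few counts, such as Kdm4d, P4ha2 and P4htm, were limited by depth.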
